A study of Mus musculus with 48 samples.

Results

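The acute-phase protein genes described here are the serum amyloid A genes Saa1, Saa2, Saa3 and Saa4, the orosomucoid genes Orm1, Orm2 and Orm3, and Hp, Lcn2 and Apcs. They were chosen by gene symbol, and they are 10 of the 20622 genes of the mouse liver tables, of which 16269 had a transcript with ribosome-protected fragments (RPFs). All 10 passed the filter on low counts in each comparison.

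By the labels, livers came from male mice of 2 to 4 months and at least 20 g, on a mixed C57BL/6 background. The paper describes induction in both sexes, with males only in some named experiments. The 4 genotypes were wild-type (WT), Ctnnb1ex3/+ with a stabilised mutant β-catenin (B), R26-LSL-MYC with a MYC transgene at the Rosa26 locus (M), and Ctnnb1ex3/+; R26-LSL-MYC with both (BM). Every mouse, WT included, received AAV8.TBG.Cre, a viral Cre driven by the hepatocyte promoter TBG, so that recombination was aimed at hepatocytes, and no group was without virus. Livers were taken 4 or 10 days later, with 3 mice per genotype and day, and each of the 24 mice gave an RPF library and a cytoplasmic RNA library from the same lysate. Day 4 and day 10 mice were induced at different times and harvested together.

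The acute phase is the liver's systemic answer to infection, injury or inflammation, in which hepatocytes change the plasma proteins they secrete. Cytokines of the IL-6 family act through STAT3, and IL-1 and TNF act through NF-kB and the C/EBP factors, on the promoters of these genes. Saa1 and Saa2 encode the inducible serum amyloid A apolipoproteins of high-density lipoprotein (HDL), Saa3 encodes a related form also made by macrophages and adipocytes, and Saa4 encodes the constitutive form. The Orm genes encode α1-acid glycoproteins, which carry lipophilic molecules, Hp encodes haptoglobin, which binds free haemoglobin, Lcn2 encodes lipocalin 2, which binds bacterial siderophores, and Apcs encodes serum amyloid P component, a pentraxin that is an acute-phase reactant in mice.

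The paralogues sit side by side. In GRCm39 the 4 Saa genes lie on chromosome 7 between 46361422, the start of Saa3, and 46403737, the end of Saa2, and the 3 Orm genes lie on chromosome 4 between 63261052 and 63284115. Hp lies at chr8:110301759-110305804, Lcn2 at chr2:32274645-32278264 and Apcs at chr1:172721528-172722611, all on the minus strand. The coding sequences of Saa1 and Saa2 were 95.1% identical, those of Saa1 and Saa3 75.9%, those of Orm1 and Orm2 89.9% and those of Orm1 and Orm3 86.0%. Of all 33-base windows in the counted part of the coding sequence, 18.0% of Saa1 were identical in Saa2, 11.5% of Saa3 were identical in another Saa gene, none of Saa4 were, and 23.6% of Orm2 were identical in another Orm gene. A footprint from such a window cannot be assigned to a single gene, and its handling by the aligner was not given in the sources used here. The following 60-base coding stretches (GRCm39, transcript strand) are shown because they carry this limit. Capitals mark the bases that differ from Saa1, and the 3 Orm stretches are identical to each other.
Saa1 (chr7:46390702-46390761, minus): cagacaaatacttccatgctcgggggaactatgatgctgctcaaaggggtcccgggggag
Saa2 (chr7:46402899-46402958, plus): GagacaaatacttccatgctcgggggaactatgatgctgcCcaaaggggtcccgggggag
Saa3 (chr7:46362035-46362094, minus): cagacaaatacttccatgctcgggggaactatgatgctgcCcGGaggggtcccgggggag
Orm1 (chr4:63264560-63264619, plus), Orm2 (chr4:63282440-63282499, plus) and Orm3 (chr4:63276067-63276126, plus): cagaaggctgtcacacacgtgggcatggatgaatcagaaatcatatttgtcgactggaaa

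Promoters of 8 members were matched in RefSeq (GRCm38.p6), and the 250 bases before each start were searched on both strands. The C/EBP-type word TTGCNNAA was found in 7 of the 8, against 9.56% of all 32851 promoters, and Apcs was the member without it. The STAT-type word TTCNNNGAA was found in Apcs alone, against 7.02% of promoters. The NF-kB-type word GGGRNWYYCC (R for A or G, W for A or T, Y for C or T) was found in none of the 8, against 3.9%. With a word this strict and a share this low, no match in 8 promoters does not mean that they lack NF-kB sites. A match is a description of the letters and not a bound site. The stretches of Saa1 and Saa2 are near copies of each other, as are those of Orm2 and Orm3. The 7 matches are therefore not independent, and enrichment over all promoters was not tested. The stretches below are shown for the 7 members that hold the C/EBP-type word, whichever way their levels moved, with the word in capitals. It started 182 bases before the start of Saa1, 183 before Saa2, 99 before Saa3, 245 and 52 before Saa4, 120 before Orm2, 121 before Orm3 and 216 before Lcn2.
Saa1 (chr7:46743129-46743188, minus): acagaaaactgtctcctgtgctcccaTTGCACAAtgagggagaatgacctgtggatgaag
Saa2 (chr7:46751624-46751683, plus): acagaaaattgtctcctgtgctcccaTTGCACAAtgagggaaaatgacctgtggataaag
Saa3 (chr7:46715742-46715801, minus): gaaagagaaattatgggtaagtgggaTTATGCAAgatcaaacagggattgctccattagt
Saa4 (chr7:46732794-46732853, minus): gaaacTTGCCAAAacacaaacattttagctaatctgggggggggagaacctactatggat
Saa4 (chr7:46732622-46732681, minus): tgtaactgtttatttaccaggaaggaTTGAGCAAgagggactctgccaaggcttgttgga
Orm2 (chr4:63362303-63362362, plus): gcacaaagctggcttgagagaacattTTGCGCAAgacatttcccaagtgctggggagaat
Orm3 (chr4:63356011-63356070, plus): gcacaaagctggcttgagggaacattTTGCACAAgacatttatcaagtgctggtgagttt
Lcn2 (chr2:32387922-32387981, minus): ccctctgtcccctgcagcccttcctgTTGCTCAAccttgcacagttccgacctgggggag

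RPF libraries held 9742197 to 14380713 counts and RNA libraries 3254141 to 6540116, and no 2 libraries of a group agreed within sampling noise. BM day 10 mouse 1 stood furthest from its group. Its disagreement in RPFs, as chi-square per degree of freedom, was 141 with mouse 2 and 165.9 with mouse 3. Mice 2 and 3 of that group gave 9.565 with each other, and the highest value of any other group was 44.85, in M at day 10. Levels are given as CPM, read counts scaled to library size, after TMM scaling of the libraries. Glul, a glutamine synthetase gene switched on by β-catenin, had 846 ± 18.8 RPF CPM in WT and 3901 ± 798 in B at day 4 (mean ± SD, n = 3). Myc had 11.3 ± 8.09 in WT and 60.4 ± 2.56 in M at day 4. Alb, the hepatocyte's main secreted protein, was at 52590 ± 4503 in WT at day 4 and at 17460 ± 2041 in BM at day 10, groups that differ in both genotype and day.

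In WT livers the acute-phase transcripts were high at day 4 and lower at day 10. The 10 members took 1.25%, 0.658% and 1.12% of RPF counts in the 3 WT mice at day 4. Per kilobase of coding sequence, the mean RPF level was 6778 CPM per kb for Hp, 3126 for Orm1, 2750 for Saa1, 2635 for Saa2, 603 for Apcs, 563 for Saa4, 421 for Saa3, 195 for Orm2, 134 for Lcn2 and 3.96 for Orm3. The ranges of neighbours in that order overlapped, except between Hp and Orm1 and between Lcn2 and Orm3. Saa1 had 1399, 171 and 1450 RPF CPM, Saa2 had 1383, 91.8 and 1419, and Lcn2 had 131, 11.2 and 99.0. Mouse 2 had the lowest value of the group for each of the 10 members, with the highest mouse above it by 15.5-fold for Saa2 and by 1.48-fold for Hp.

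At day 10 the WT mice had 18.9, 89.6 and 45.4 RPF CPM of Saa1, and their group mean was 19.6-fold lower than at day 4. The log2 change of Saa1 was -4.30, and -4.98 without day 10 mouse 2. All 10 members were lower at day 10 than at day 4 (adjusted p < 0.1 by edgeR's quasi-likelihood test, the threshold used throughout), against 4.44% of all genes tested called in either direction. The log2 changes ran from -4.89 for Saa2 (SE 0.84, adjusted p = 0.012) to -0.82 for Orm1 (SE 0.18, adjusted p = 0.0324). Hp went from 8337, 5641 and 7190 RPF CPM to 2627, 3902 and 2967, a log2 change of -1.15 (SE 0.18, adjusted p = 0.0081). Some calls rested on single mice. Orm1 lost its call without WT day 4 mouse 1 or 3 or day 10 mouse 1 (adjusted p 0.105 to 0.146), Orm3 without day 4 mouse 1 or 3 or day 10 mouse 3 (0.128 to 0.142), and Apcs without day 4 mouse 1 or 3 or day 10 mouse 1 or 3 (0.158 to 0.225), so that 7 to 10 members stayed called when 1 mouse was left out. DESeq2 called 8 of the 10, all but Apcs (adjusted p = 0.102) and Orm3, for which it gave no adjusted p, a block of same-numbered mice called 8, and a fit of all 24 mice called 7, without Orm1 (adjusted p = 0.117), Orm3 (0.471) and Apcs (0.183). In these whole livers, fewer cells of a type and less RNA per cell cannot be told apart.

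**Figure D1:**
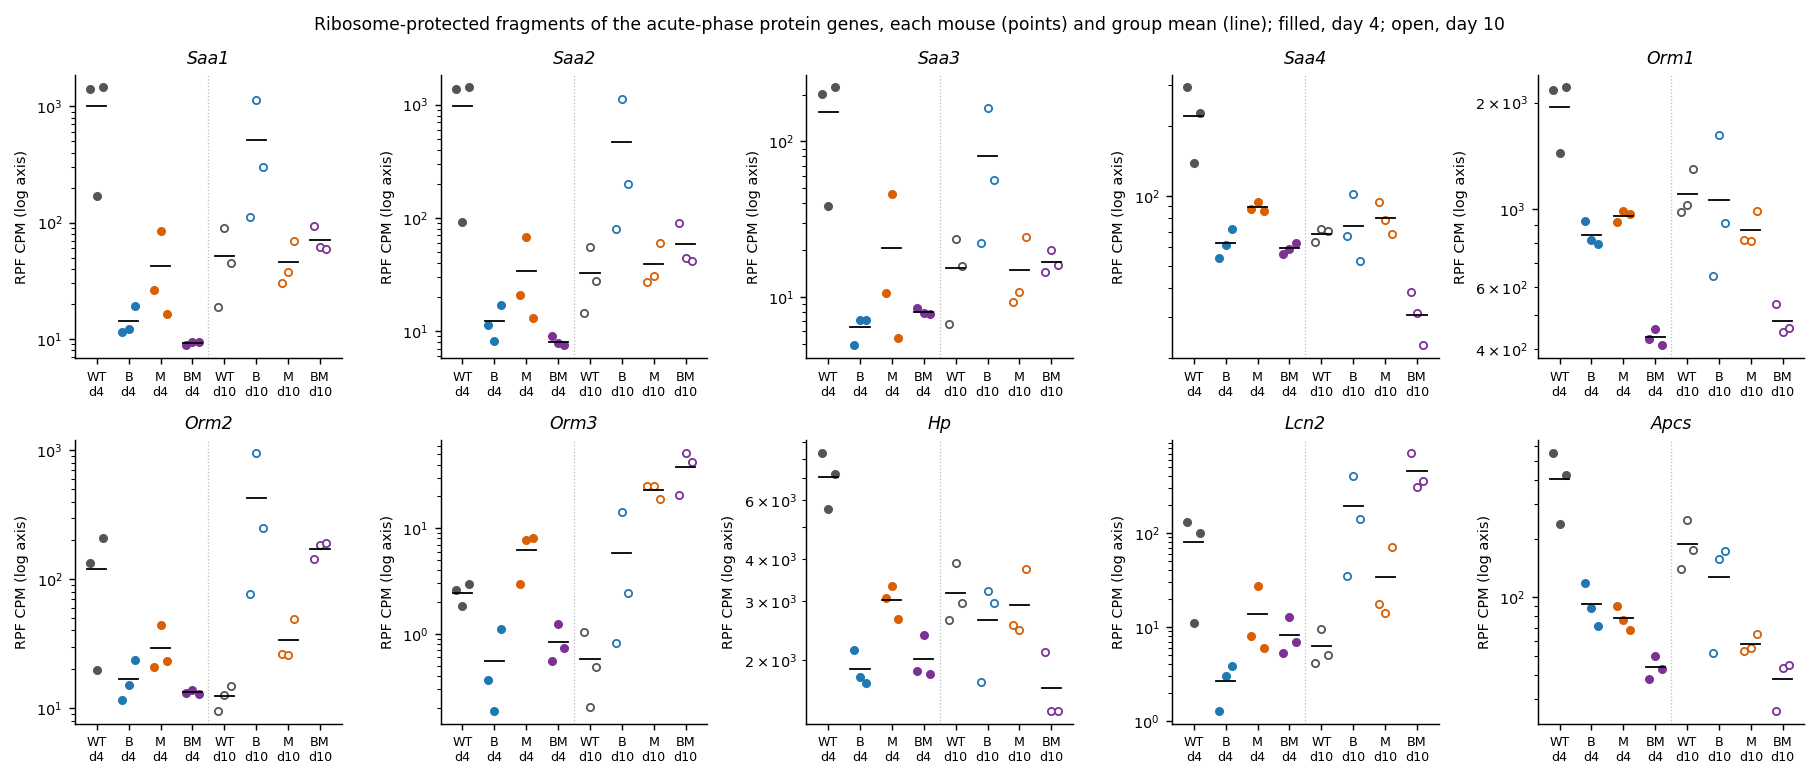
RPF level of each acute-phase gene in every mouse, in CPM on log axes that differ between panels, for WT, B, M and BM at day 4 (filled) and day 10 (open), with the group mean as a line. WT mice at day 4 stand highest for Hp, from 5641 to 8337, while Lcn2 has its highest group mean in BM at day 10, where the mice lie from 310 to 714 and B mouse 2 is at 406.

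At day 4 each mutant genotype was compared with WT. The WT levels of that day were themselves above those of WT at day 10 for all 10 members. Saa1, for example, was at 171 to 1450 RPF CPM in WT at day 4, 18.9 to 89.6 in WT at day 10 and 16.4 to 84.7 in M at day 4. How far a lower value in a mutant reflects high WT levels at day 4 was not tested. The 3 comparisons share the 3 WT mice whose levels are given above, so their directions are not independent of each other. All 10 members were lower than in WT in B, where 12.5% of all genes tested were called, and all 10 in BM, where 50.9% were. In M, where 33.3% were called, 9 were lower and Orm3 was higher. The median log2 change of the members was -2.50 in B, -2.18 in M and -3.18 in BM, beside -0.012, 0.014 and -0.001 over all genes tested.

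Saa1 and Saa2 fell furthest. Saa1 had 11.5, 12.1 and 19.1 RPF CPM in the B mice, 26.5, 84.7 and 16.4 in the M mice and 8.80, 9.44 and 9.46 in the BM mice, so every mutant mouse was below the lowest WT mouse at 171. The group means were 70.6-fold, 23.6-fold and 109-fold lower than in WT, with log2 changes of -6.15 (SE 0.70, adjusted p = 0.000522), -4.52 (SE 0.81, adjusted p = 0.00292) and -6.75 (SE 0.70, adjusted p = 2.12e-05). The fold in M rested on M mouse 2, without which the log2 changes of Saa1, Saa2 and Saa3 in M were -5.52, -5.80 and -4.24. Saa2 had log2 changes of -6.31, -4.79 and -6.87. Saa3 fell by 4.61 in B, 2.85 in M and 4.24 in BM, with M mouse 2 at 45.8 RPF CPM, above WT mouse 2 at 38.2. The constitutive Saa4 fell less, by 1.83, 1.27 and 1.86.

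Among the orosomucoid genes, Orm1 fell in each genotype, with 922, 814 and 792 RPF CPM in B, 919, 983 and 967 in M and 428, 457 and 409 in BM, against 2179, 1436 and 2209 in WT. Its log2 changes were -1.22 (SE 0.15, adjusted p = 0.000808), -0.99 (SE 0.15, adjusted p = 0.00104) and -2.15 (SE 0.15, adjusted p = 1.45e-06). Orm2 fell by 2.86, 2.01 and 3.17, and in B and M its groups overlapped with WT through WT mouse 2 at 19.8. Orm3 is a low gene, with 2.57, 1.82 and 2.94 RPF CPM in WT. It was at 2.98, 7.66 and 7.99 in M, a rise of 1.37 (SE 0.37, adjusted p = 0.0207), and it fell by 2.11 in B and 1.52 in BM. In a fit of all 24 mice none of these 3 Orm3 changes was called (adjusted p = 0.343 in B, 0.223 in M and 0.182 in BM). The sum of the 3 Orm genes, which is mostly Orm1, changed by -1.03 in M (adjusted p = 0.00152). The Orm3 change in B was -3.10 without B mouse 3.

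The haemoglobin-binding Hp had 2145, 1784 and 1711 RPF CPM in B, 3062, 3326 and 2650 in M and 1855, 2382 and 1820 in BM, all below the WT range. Its log2 changes were -1.92 (SE 0.15, adjusted p = 5.7e-05), -1.19 (SE 0.14, adjusted p = 0.000321) and -1.78 (SE 0.16, adjusted p = 6.44e-06). Lcn2 was at 1.29, 2.98 and 3.83 in B, a fall of 4.90, while M mouse 2 at 27.0 and BM mouse 2 at 12.8 were above the lowest WT mouse at 11.2. Apcs fell by 2.15 in B, 2.34 in M and 3.19 in BM, with no overlap. In M, Lcn2 lost its call without WT mouse 1 (log2 change -1.96, adjusted p = 0.127), and Orm2 without WT mouse 3 (-1.36, adjusted p = 0.164) or M mouse 1 (-1.83, adjusted p = 0.111). No member lost its call in B or BM when any 1 mouse was left out, WT mice 1 and 3 included.

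BM was also set beside each single mutant at day 4. Against B, where 44.7% of all genes were called, 4 members were lower and Lcn2 was higher, by 1.65 (SE 0.40, adjusted p = 0.00984). Against M, where 38.2% were called, 8 members were lower and none was higher. Orm1 was lower in BM by 0.93 against B (SE 0.09, adjusted p = 6.51e-05) and by 1.16 against M (SE 0.08, adjusted p = 1.43e-05), with no overlap of BM with either. Apcs was lower by 1.04 and 0.85, and Orm3 was lower by 2.90 against M. Against M the Saa1 change of -2.23 became -1.24 without M mouse 2, the Saa2 change of -2.08 became -1.08 and the Orm2 change of -1.16 became -0.75. In a fit of all 24 mice the changes of BM against B of Lcn2 (adjusted p = 0.264), Saa1 (0.616) and Saa2 (0.679) were not called, nor were those against M of Saa2 (0.125), Orm2 (0.276) and Apcs (0.106). Without TMM the changes against B of Saa1 (0.263) and Saa2 (0.407) were not called. Against B the Saa1 change of -0.59 became -0.32 without B mouse 3, and Saa2 at -0.57 lost its call without B mouse 3 (-0.25, adjusted p = 0.33) or BM mouse 2 or 3 (adjusted p = 0.18 and 0.201).

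At day 10 the genotypes differed from WT in both directions. In B, where 25.2% of all genes tested were called, 6 members were higher and none was lower. In M, where 19.4% were called, Orm2, Orm3 and Lcn2 were higher and Apcs was lower. In BM, where 46.8% were called, the same 3 genes were higher and Saa4, Orm1, Hp and Apcs were lower. Median changes of the 10 members were 2.81, 0.09 and 0.29 on the log2 scale, beside 0.007, -0.001 and 0.034 over all genes tested.

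Among the Saa genes, the rise at day 10 was called in B alone, and how far B differs from M was not tested. Saa1 had 112, 1134 and 300 RPF CPM in the B mice, all above the WT mice at 18.9 to 89.6, a log2 change of 3.32 (SE 0.82, adjusted p = 0.0233). Saa2 had 80.5, 1122 and 199 and changed by 3.82 (SE 0.91, adjusted p = 0.0202), and Saa3 had 22.1, 165 and 56.6, overlapping WT, and changed by 2.39 (SE 0.67, adjusted p = 0.0394). The size of these changes depended on B mouse 2, the highest B mouse for 9 of 10 members, and they were 2.01, 2.10 and 1.36 without it. Saa3 then lost its call (adjusted p = 0.126), as it did without WT mouse 1 (2.01, adjusted p = 0.138) or WT mouse 3 (2.41, adjusted p = 0.134), and Saa1 lost its call without WT mouse 3 (3.24, adjusted p = 0.107).

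In M and BM no change of Saa1, Saa2 or Saa3 passed the test. Saa1 had 30.5, 37.9 and 70.0 RPF CPM in M and 93.0, 61.7 and 58.9 in BM, both overlapping WT, with log2 changes of -0.15 (SE 0.50, adjusted p = 0.872) and 0.46 (SE 0.48, adjusted p = 0.472). Saa4 was lower in BM, with 38.4, 31.4 and 22.7 against 63.0, 71.8 and 70.7 in WT, a change of -1.16 (SE 0.20, adjusted p = 0.00451). In B and M its changes were 0.09 and 0.23 and were not called.

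The Orm genes moved apart at day 10. Orm1, the highest of the 3, had 536, 447 and 459 RPF CPM in BM against 977, 1022 and 1297 in WT, a fall of 1.21 (SE 0.18, adjusted p = 0.0027), and its changes of -0.07 in B and -0.34 in M were not called. Orm2 had 9.53, 12.7 and 14.9 in WT and 142, 185 and 191 in BM, a rise of 3.79 (SE 0.23, adjusted p = 0.000102). It had 76.6, 956 and 250 in B, a rise of 5.10 (SE 0.83, adjusted p = 0.00396), while the sum of the 3 Orm genes, which is mostly Orm1, changed by 0.41 there (adjusted p = 0.507). It had 26.4, 25.7 and 48.8 in M, a rise of 1.45 (SE 0.27, adjusted p = 0.0144), which was not called in a fit of all 24 mice (adjusted p = 0.19) and where the Orm sum changed by -0.27. Without B mouse 2 the Orm2 rise in B was 3.73. No mutant mouse overlapped WT for Orm2.

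Orm3 was at 1.05, 0.205 and 0.481 RPF CPM in WT, 25.0, 25.3 and 18.9 in M and 20.6, 51.9 and 42.7 in BM. Its group means were 39.9-fold higher in M and 66.4-fold higher in BM, with log2 changes of 5.23 (SE 0.34, adjusted p = 0.000538) and 5.96 (SE 0.55, adjusted p = 0.000386). Without WT mouse 1 these log2 changes of Orm3 were 6.08 and 6.79. In B it was at 0.815, 14.3 and 2.41, which overlapped WT, and the change of 3.23 (SE 1.06, adjusted p = 0.067) lost its call without any 1 of the WT mice (adjusted p 0.136 to 0.193) or without B mouse 2 (1.42, adjusted p = 0.233). A footprint shared with Orm1 or Orm2 can count towards Orm3, so these low counts, 2 to 668 per library, are uncertain.

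Lcn2 rose in all 3 genotypes. It had 4.20, 9.62 and 5.05 RPF CPM in WT, 34.8, 406 and 141 in B, 17.6, 14.1 and 70.6 in M and 714, 310 and 360 in BM, with no mutant mouse in the WT range. The group mean was 73.4-fold higher in BM than in WT. Log2 changes were 4.93 in B (SE 0.82, adjusted p = 0.00441), 2.43 in M (SE 0.64, adjusted p = 0.0446) and 6.18 in BM (SE 0.48, adjusted p = 0.000194), and the change in B was 3.81 without B mouse 2. Per kilobase, Lcn2 in BM reached 769 CPM per kb, beside 774 for Orm1 and 1581 for Hp, and the ranges of Lcn2 and Orm1 overlapped. In M the change was 1.34 without M mouse 3, and the call was lost without WT mouse 1 (2.21, adjusted p = 0.153) or WT mouse 3 (2.32, adjusted p = 0.152).

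Lcn2 is also carried by neutrophils, and the 10 neutrophil markers were S100a8, S100a9, Ly6g, Elane, Mpo, Camp, Ngp, Ltf, Retnlg and Cxcr2. Their summed level was 5.16 to 12.9 RPF CPM in WT at day 10, 13.2 to 37.3 in B, 4.98 to 10.5 in M and 14.4 to 17.1 in BM. In WT at day 4 it was 9.11 to 22.8, and it was 3.26 to 6.59 over the B, M and BM mice of that day. Markers with any count numbered 8 of 10 in WT at day 4, 7 in WT and M at day 10 and 10 in B and BM at day 10, and Elane, Mpo and Camp were at 0 or up to 0.413 RPF CPM in every mouse. The 8 Kupffer cell and macrophage markers summed at day 4 to 601 to 691 in WT, 471 to 552 in B, 387 to 1126 in M with mouse 2 highest, and 355 to 381 in BM. At day 10 they summed to 463 to 667 in WT, 564 to 824 in B, 485 to 751 in M and 748 to 830 in BM. The 5 cholangiocyte markers summed at day 4 to 85.7 to 133 in WT and 36.1 to 63.8 over the mutant mice, and at day 10 the ranges of all 4 genotypes overlapped. The 8 hepatocyte markers, all with counts in each group, summed at day 4 to 79970 to 92240 in WT, 67520 to 79630 in B, 54450 to 68600 in M and 37220 to 44210 in BM, so they too were lower where the members were. The endothelial, stellate cell, lymphocyte and erythroid marker sums of day 4 were also below the WT range in BM, and overlapped it in B. In M all of these but the lymphocyte sum were below it. At day 10 they summed to 79360 to 99550 in WT, 44220 to 46380 in B, 47580 to 50670 in M and 35740 to 57930 in BM. The part of these cell types in the changes above was not tested.

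Hp had 2117, 1411 and 1409 RPF CPM in BM and 2627, 3902 and 2967 in WT at day 10, a change of -0.96 (SE 0.25, adjusted p = 0.0195). Without TMM this change of Hp was -0.57 and was not called (adjusted p = 0.11). Its changes in B and M were -0.28 and -0.12 and were not called. Apcs had 53.2, 54.7 and 65.2 in M and 26.2, 43.3 and 44.9 in BM, all below the WT mice at 140, 248 and 175. The log2 changes were -1.70 (SE 0.20, adjusted p = 0.00281) and -2.31 (SE 0.29, adjusted p = 0.00127). In B, Apcs had 51.7, 158 and 172, which overlapped WT, and its change of -0.57 was not called (adjusted p = 0.355).

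**Figure D2:**
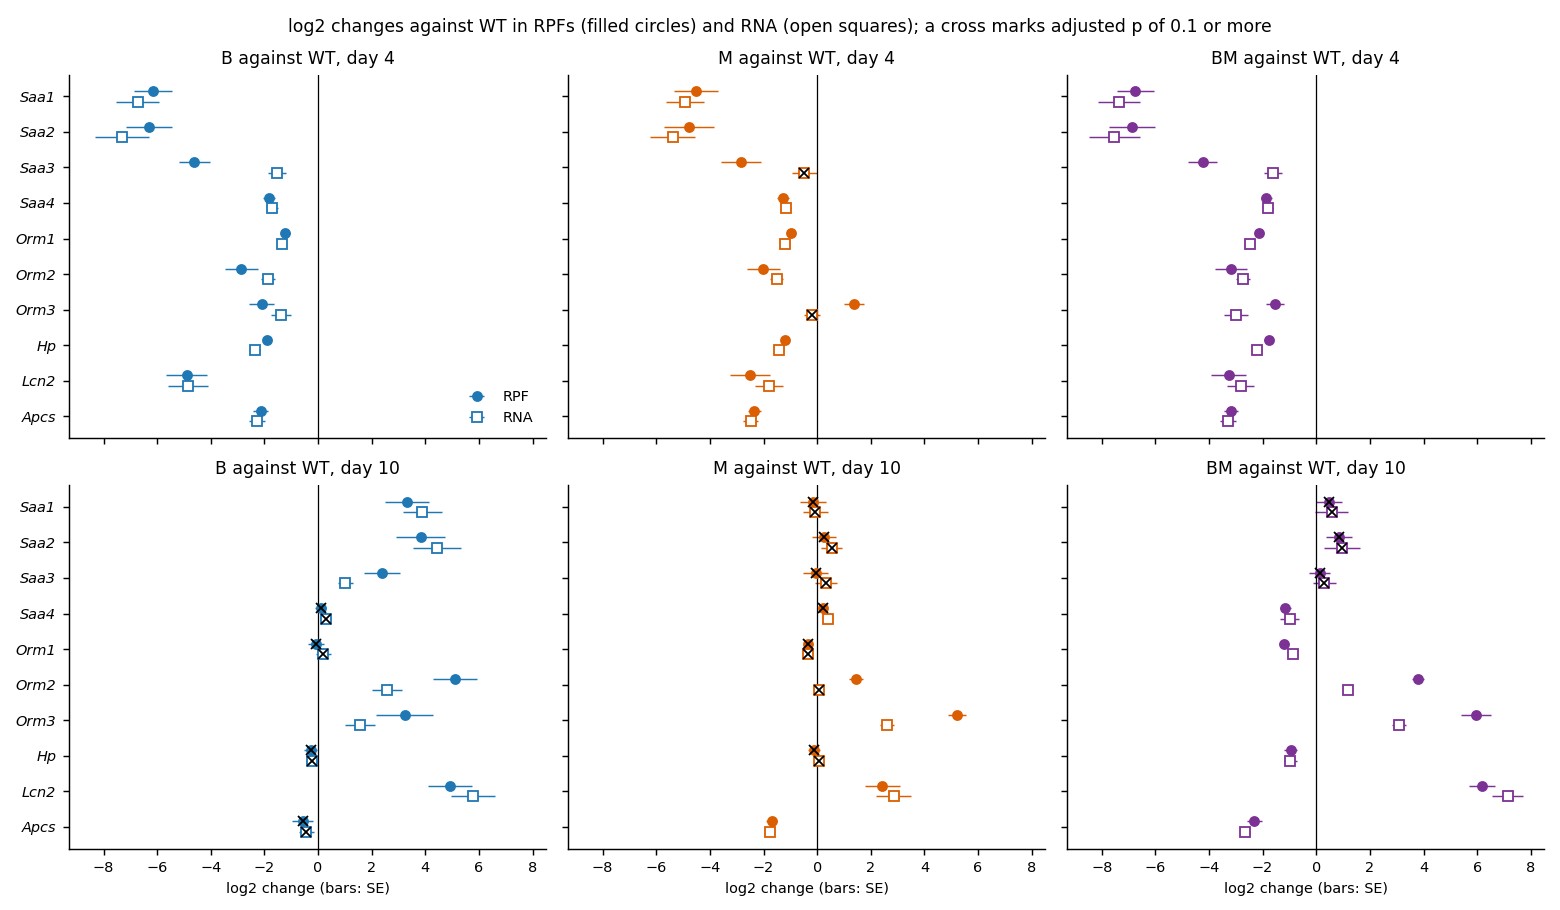
Log2 changes against WT for each member, by genotype and day, in RPFs (filled circles) and RNA (open squares), with bars of 1 SE and a cross where the adjusted p was 0.1 or more. At day 4 the RPF changes lie left of 0 except Orm3 in M at 1.37, and at day 10 Orm2, Orm3 and Lcn2 lie right of 0 in all 3 genotypes in RPFs.

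Setting BM beside the single mutants at day 10 separated the genes further. Against B, where 36.5% of all genes were called, Saa1, Saa2, Saa3, Saa4, Orm1 and Apcs were lower and Orm3 was higher. Most of these rested on few mice, and the count ran from 2 to 8 when 1 mouse was left out. Without B mouse 2, the changes of Saa1, Saa2, Saa3 and Orm1 went from -2.85, -2.99, -2.25 and -1.13 to -1.52, -1.24, -1.21 and -0.68, that of Orm3 went from 2.73 to 4.57, and the calls of Saa2, Saa3, Orm1 and Apcs were lost (adjusted p 0.104 to 0.139). Without BM mouse 2 or 3, those of Saa1, Saa2, Saa3, Orm1 and Orm3 were lost (0.104 to 0.157), and single B mice also ended Orm3 (mouse 1 or 3, 0.11 and 0.161) and Apcs (mouse 3, 0.101). Saa4, at -1.25 (SE 0.29, adjusted p = 0.0226), held its call without any 1 of these mice.

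Against M, where 32.7% were called, Orm2 and Lcn2 were higher in BM, by 2.35 (SE 0.28, adjusted p = 0.00271) and 3.76 (SE 0.68, adjusted p = 0.0113), with no overlap. Saa4 was lower by 1.41 and Orm1 by 0.87. Hp and Apcs were lower by 0.84 and 0.61, but Hp lost its call without any 1 of the M mice or BM mouse 2 or 3 (adjusted p 0.105 to 0.185), and so did Apcs (0.105 to 0.208), whose change was -0.36 without BM mouse 1. The Orm3 change of 0.72 (SE 0.34, adjusted p = 0.164) was not called, with M at 18.9 to 25.3 and BM at 20.6 to 51.9 RPF CPM.

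Within a genotype, levels at day 10 and day 4 were set side by side. In B, where 34.5% of all genes were called, Saa1, Saa2, Saa3, Orm2, Orm3 and Lcn2 were higher at day 10, and the Orm sum changed by 0.80 (adjusted p = 0.159). Saa1 went from 11.5, 12.1 and 19.1 to 112, 1134 and 300, a change of 5.18 (SE 0.81, adjusted p = 0.00373), and Lcn2 changed by 6.16 (SE 0.92, adjusted p = 0.00328). In BM, where 45.3% were called, the same 6 were higher and Saa4 was lower. The BM changes were 2.92 for Saa1, 2.83 for Saa2, 1.04 for Saa3, 3.67 for Orm2, 5.48 for Orm3, 5.76 for Lcn2 and -0.98 for Saa4, of which that of Saa3 was not called in a fit of all 24 mice (adjusted p = 0.234). In M, where 0.909% were called, Orm3 was the only member called, at 1.89 (SE 0.31, adjusted p = 0.0801), and it lost the call without M day 4 mouse 1, 2 or 3 or M day 10 mouse 1 or 2 (adjusted p 0.153 to 0.263). In B, Orm3 at 3.35 lost its call without day 4 mouse 1 or 2 (adjusted p = 0.159 and 0.156) or day 10 mouse 2 (1.52, adjusted p = 0.177).

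The change against WT was then compared between the days, as an interaction of genotype and day. Since WT itself was lower at day 10 for all 10 members, a positive difference holds both the WT change and the mutant change. In B, where 17.2% of all genes were called, the difference was called and positive for all 10 members, from 1.15 for Orm1 to 10.14 for Saa2, and DESeq2 did not call Apcs (adjusted p = 0.127). In BM, where 35.7% were called, it was called for 8 members, all positive, and Saa4 at 0.71 (adjusted p = 0.135) and Apcs at 0.88 (adjusted p = 0.142) were not called. In M, where 1.18% were called, it was above 0 for all 10 members and called for Saa2, Saa4, Orm3 and Lcn2, and the count of calls ran from 0 without WT day 4 mouse 1 to 8 without WT day 4 mouse 2. With 1 mouse left out, calls were lost for Orm1 and Apcs in B (without WT day 4 mouse 1 or 3, among others), for each of the 4 genes in M (without WT day 4 mouse 1, among others) and for Hp in BM (without WT day 4 mouse 1 or 3, among others). The B difference of Orm1 was 0.71 and that of Orm3 went from 5.35 to 3.52 without B day 10 mouse 2.

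Cytoplasmic RNA of the same mice showed largely the same directions at day 4. All 10 members were lower than in WT in B, against 8.14% of all genes tested, 8 were lower in M, against 23.7%, and all 10 in BM, against 41.9%. Saa3 and Orm3 were the members not called in M, with RNA changes of -0.48 and -0.18 beside RPF changes of -2.85 and 1.37. For Saa1 the RNA had 681, 62.6 and 637 CPM in WT and 3.15, 2.59 and 2.67 in BM, a change of -7.34 (SE 0.78, adjusted p = 6.73e-06). Saa3 RNA went from 20.5, 7.68 and 13.4 to 6.15, 3.29 and 3.92 in BM, a change of -1.62 (SE 0.33, adjusted p = 0.00158), beside -4.24 in RPFs. Leaving out 1 mouse ended the RNA calls of Orm3 in B (WT mouse 1 or 3, B mouse 2 or 3, adjusted p 0.142 to 0.183) and of Lcn2 in M (WT mouse 1 or 3, M mouse 1, 0.116 to 0.148), and the latter change of -1.80 was -2.93 without M mouse 2. A fit of all 24 mice ended the RNA calls of Saa3 (adjusted p = 0.128) and Orm3 (0.154) in B and of Lcn2 in M (0.137), which DESeq2 did not call either (0.186).

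At day 10 the RNA of 6 members was higher in B, against 15.6% of all genes tested. In M, against 15.7%, Saa4, Orm3 and Lcn2 were higher and Apcs was lower. In BM, against 45.7%, Orm2, Orm3 and Lcn2 were higher and Saa4, Orm1, Hp and Apcs were lower. Lcn2 RNA had 1.66, 1.57 and 0.491 CPM in WT and 309, 112 and 128 in BM, a change of 7.13 (SE 0.57, adjusted p = 6.09e-05). Orm2 RNA had 35.8, 31.7 and 41.2 in WT and 89.6, 74.3 and 84.7 in BM, a change of 1.19 (SE 0.15, adjusted p = 0.000554), beside 3.79 in RPFs.

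Some of these RNA values also rested on single mice. Without B mouse 2 the B changes of Saa1, Saa2, Orm2 and Orm3 went from 3.89, 4.44, 2.57 and 1.57 to 2.51, 2.47, 1.32 and 0.60. Orm3 then lost its call, as it did without any 1 WT mouse (adjusted p 0.148 to 0.451 over the 4), and Saa3 lost its call without WT mouse 1 or 3 or B mouse 2 (0.175 to 0.191). Saa4 lost its call in M without WT mouse 1 or 3 or M mouse 1 or 2 (0.1 to 0.177), and in BM without any 1 WT mouse or BM mouse 2 or 3 (0.103 to 0.168), where its change of -0.996 was -1.68 without BM mouse 1. Lcn2 in M went from 2.86 to 1.81 without M mouse 3. A fit of all 24 mice ended the day 10 RNA calls of Lcn2 (adjusted p = 0.122) and Saa4 (0.417) in M and of Saa3 in B (0.213). Without TMM the RNA call of Saa4 in BM was also lost (-0.59, adjusted p = 0.208).

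Translation efficiency (TE) was taken as the log2 ratio of RPF CPM to RNA CPM in the same mouse, and tested as the interaction of library type and genotype. By edgeR's quasi-likelihood test, no member was called in the 3 comparisons of day 4 with B, M and BM, where 0.0488%, 0.971% and 2.23% of all genes tested were. At day 10, none was called in B, where 0.0564% of all genes were, or in M, where 0% were, and Orm2 was called in BM, where 0.259% were. An unadjusted p under 0.05 was reached by 1, 1 and 2 members at day 4, beside 290 of 10237, 758 of 10405 and 1059 of 10528 genes tested. At day 10 it was reached by 1, 2 and 2 members, beside 558 of 10632, 334 of 10453 and 1042 of 10431 genes. DESeq2 called 0, 0 and 1 members at day 4 and 0, 1 and 2 at day 10, and its counts over all genes are not given here. Log2 TE of Orm2 was -1.91, -1.32 and -1.47 in WT at day 10 and 0.66, 1.32 and 1.17 in BM, a difference of 2.58 (SE 0.26, adjusted p = 0.000765).

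RPF and RNA libraries with the same number come from the same mouse, and with the mouse as a block more members passed. At day 4 the blocked test called Saa3 at -3.01 and Hp at 0.41 in B, against 0.274% of all genes, Saa3 at -2.23, Saa2 at 0.61 and Orm3 at 1.56 in M, against 2.65%, and Saa3 at -2.55, Hp at 0.41 and Orm1 at 0.30 in BM, against 6.17%. At day 10 it called Orm2 at 2.37 and Saa1 at -0.60 in B, against 2.6%, Orm2 at 1.35 and Orm3 at 2.60 in M, against 0.325%, and Orm2 at 2.58 and Orm3 at 2.76 in BM, against 5.21%. Apcs, Lcn2 and Saa4 were called in none of the 6 comparisons by either test. Log2 TE of Saa3 was 3.30, 2.32 and 4.05 in WT at day 4 and 0.26, 0.45 and 0.44 in B, with no overlap. Orm3 reached 10 counts in both libraries in 1 WT mouse of day 10, with a log2 TE of -0.98, beside 0.59, 1.03 and 0.35 in M and 0.10, 1.28 and 1.06 in BM, so its day 10 difference rests on very few WT counts. Log2 TE of Hp was 0.76, 0.93 and 1.04 in WT and 1.25, 1.36 and 1.37 in B at day 4. Saa4 had a log2 TE below 0 in every mouse, from -1.78 to -0.66, and Saa1 had one above 0 in every mouse, from 0.82 to 2.28.

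**Figure D3:**
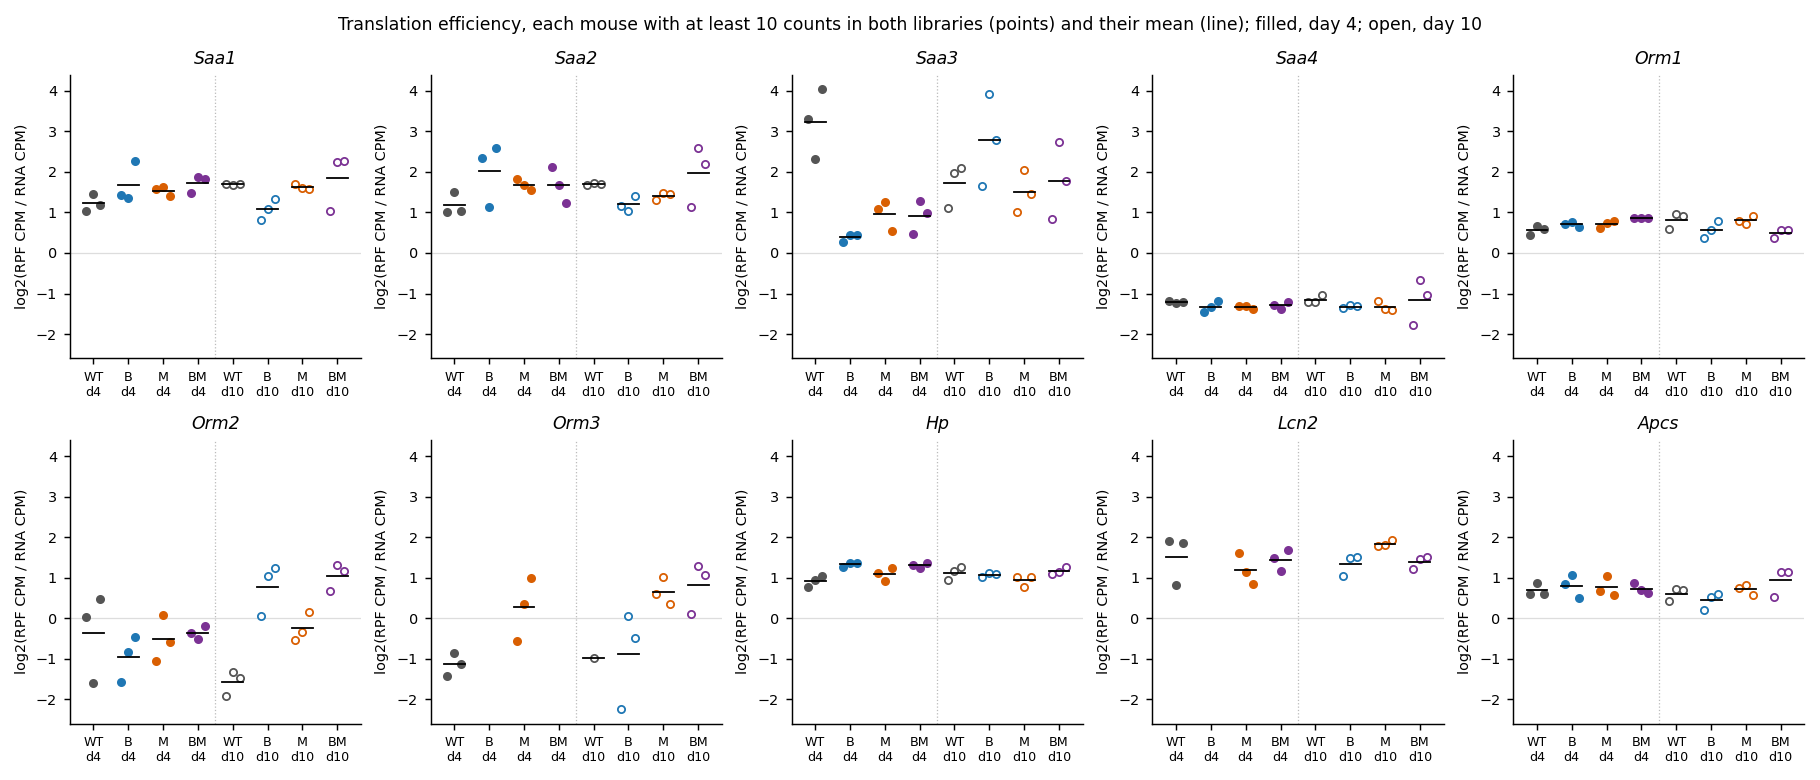
Log2 TE of each member in every mouse with at least 10 counts in both libraries, at day 4 (filled) and day 10 (open), with the group mean as a line. Orm2 rises from -1.91 to -1.32 in WT at day 10 to 0.66 to 1.32 in BM, and Saa4 stays below 0 in all 24 mice.

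Saa3, Orm2 and Orm3, which had the TE differences furthest from 0, share footprint windows with more abundant paralogues, and so the counts of paralogues were set side by side. The Saa2 counts were 53.8% to 102% of the Saa1 counts in RPFs (median 79.3%) and 51.9% to 120% in RNA (median 75.9%). Saa3 was different, since its RPF counts were 7.25% to 47.4% of Saa1 and Saa2 together while its RNA counts were 1.01% to 118%. In WT mice 1 and 3 of day 4, where Saa1 and Saa2 were highest, Saa3 was 7.25% and 7.75% of their RPF counts and 1.5% and 1.01% of their RNA counts. In the BM mice of the same day it was 47.4%, 46.0% and 45.7% of the RPF counts and 118%, 65.5% and 66.7% of the RNA counts. How far shared footprints made up these Saa3 RPF counts was not tested.

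Orm2 counts were 0.975% to 1.24% of Orm1 in RPFs and 5.49% to 6.03% in RNA in WT at day 10. In BM at day 10 they were 26.5%, 41.4% and 41.6% in RPFs and 21.5%, 24.8% and 27.1% in RNA, and in B mouse 2 they were 59.1% and 42.2%. The RPF share was above the RNA share in the 3 BM mice and in B mice 2 and 3 of day 10, and below it in all other mice. Summed over the 3 Orm genes, the RNA change in B at day 10 was 0.50 (adjusted p = 0.379). Without the mouse as a block, the TE difference of the sum in BM at day 10 was -0.14 (SE 0.24, adjusted p = 0.88). There the summed RPF and RNA levels fell by 0.70 (adjusted p = 0.018) and 0.57 (adjusted p = 0.0303). The rises of Orm2 and Orm3 stood within a smaller Orm total, which went from 1112 ± 175 to 692 ± 7.65 RPF CPM.

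**Figure D4:**
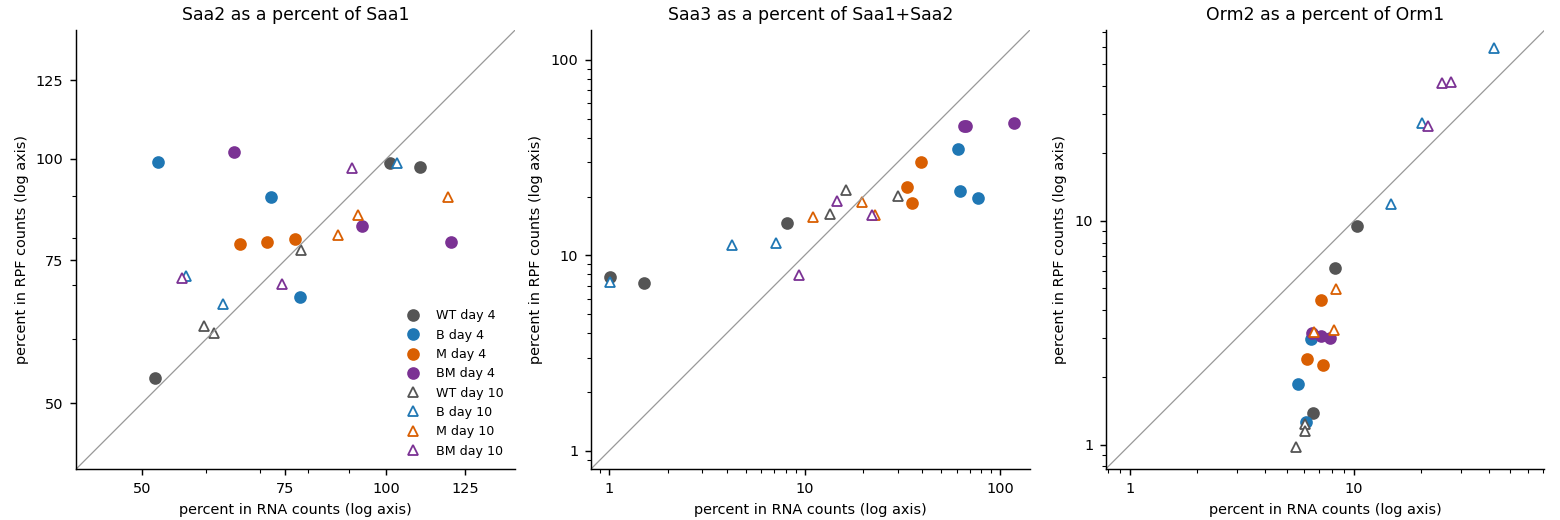
Counts of Saa2 as a percent of Saa1, Saa3 as a percent of Saa1 and Saa2 together, and Orm2 as a percent of Orm1, in RPFs (vertical) and RNA (horizontal) on log axes, with 1 point per mouse coloured by genotype (circles, day 4, triangles, day 10) and a line where both are equal. Saa3 spans 1.01% to 118% in RNA but 7.25% to 47.4% in RPFs, and Orm2 spans 5.49% to 42.2% in RNA and 0.975% to 59.1% in RPFs.

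Other genes of the acute phase were counted in 5 lists, to be read beside the shares of all genes called in RPFs in either direction, which at day 4 were 12.5%, 33.3% and 50.9% for B, M and BM, and at day 10 were 25.2%, 19.4% and 46.8%. Counts near those shares, among them the day 10 counts of the signalling genes and of the partner genes in B and M, say nothing particular about a list. Of 19 other positive acute-phase genes tested at day 4 in RPFs, 16 fell in B, 17 in M and 19 in BM, and none rose. The largest fall in BM was that of the metallothionein gene Mt2, from 27.2 ± 33.7 to 2.89 ± 3.41 RPF CPM, a change of -3.25 (SE 0.93, adjusted p = 0.015). At day 10, 2 of 20 rose and 5 fell in B, 3 rose and 7 fell in M, and 4 rose and 8 fell in BM. There Mt2 rose by 7.48 (SE 0.56, adjusted p = 0.000166), from 1.63 ± 0.980 to 294 ± 134, and Hpx, which encodes the haem carrier hemopexin, fell by 1.77 (SE 0.36, adjusted p = 0.00796). The fibrinogen genes Fga, Fgb and Fgg fell in each of the 6 comparisons, and were named after their values were seen, with Fga at -1.01, -0.93 and -1.72 at day 4 and -0.93, -0.59 and -1.41 at day 10.

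Upstream of these genes, 14 signalling and transcription factor genes were tested. At day 4, 4 fell in B, 5 in M and 10 in BM and none rose. Stat3, the main IL-6 effector, fell by 1.53 in BM (SE 0.14, adjusted p = 8.56e-06), from 309 ± 56.4 to 105 ± 13.9 RPF CPM. At day 10, 2 rose and 3 fell in B, none rose and 2 fell in M, and 2 rose and 4 fell in BM. Cebpd, a C/EBP factor induced in the acute phase, rose by 2.15 in BM (SE 0.35, adjusted p = 0.00355), from 3.51 ± 0.970 to 15.9 ± 5.90, and Cebpa, the C/EBP factor of the resting hepatocyte, fell by 1.47 (SE 0.19, adjusted p = 0.00156). Socs3, which STAT3 induces, was named after its values were seen and rose by 1.22 in B at day 10 (SE 0.31, adjusted p = 0.0245). Its values in the other comparisons are not given here, and STAT3 activity was not tested.

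Of 9 cytokine and receptor genes tested, the day 4 falls numbered 4 in B, 7 in M and 6 in BM, with none rising. Il1b was the largest in BM, at -2.04 (SE 0.46, adjusted p = 0.00393), from 7.52 ± 3.68 to 1.84 ± 1.29 RPF CPM. At day 10, 2 rose and 1 fell in B, none rose and 3 fell in M, and 3 rose and 5 fell in BM. The IL-1 receptor gene Il1r1 rose by 1.45 in BM (SE 0.16, adjusted p = 0.000758) and the LIF receptor gene Lifr fell by 3.11 (SE 0.23, adjusted p = 0.000167), from 706 ± 104 to 82.6 ± 20.7.

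Negative acute-phase genes are those whose products fall in an acute phase. Of 10 tested, 3 rose and 3 fell in B, 1 rose and 7 fell in M, and 2 rose and 7 fell in BM at day 4. At day 10, 1 rose and 7 fell in B, 7 fell in M and 8 fell in BM. In BM, Serpina6 (corticosteroid-binding globulin) rose by 1.25 at day 4 and Trf (transferrin) fell by 1.27 at day 4 and 2.60 at day 10. Genes of the haemoglobin, iron and HDL partners moved in both directions: of 6 tested at day 4, 1 rose and 1 fell in B, 3 fell in M, and 1 rose and 3 fell in BM. At day 10, 1 of 7 rose and 1 fell in B, 1 of 6 fell in M, and 3 of 7 rose and 2 fell in BM. There Cd163, the macrophage receptor for haptoglobin and haemoglobin, rose by 1.69 (SE 0.38, adjusted p = 0.012), while Lrp2, a receptor of lipocalin 2, rose by 1.00 at day 4 and fell by 2.52 at day 10, and Hmox1 (haem oxygenase) fell by 1.28 at day 4.

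**Figure D5:**
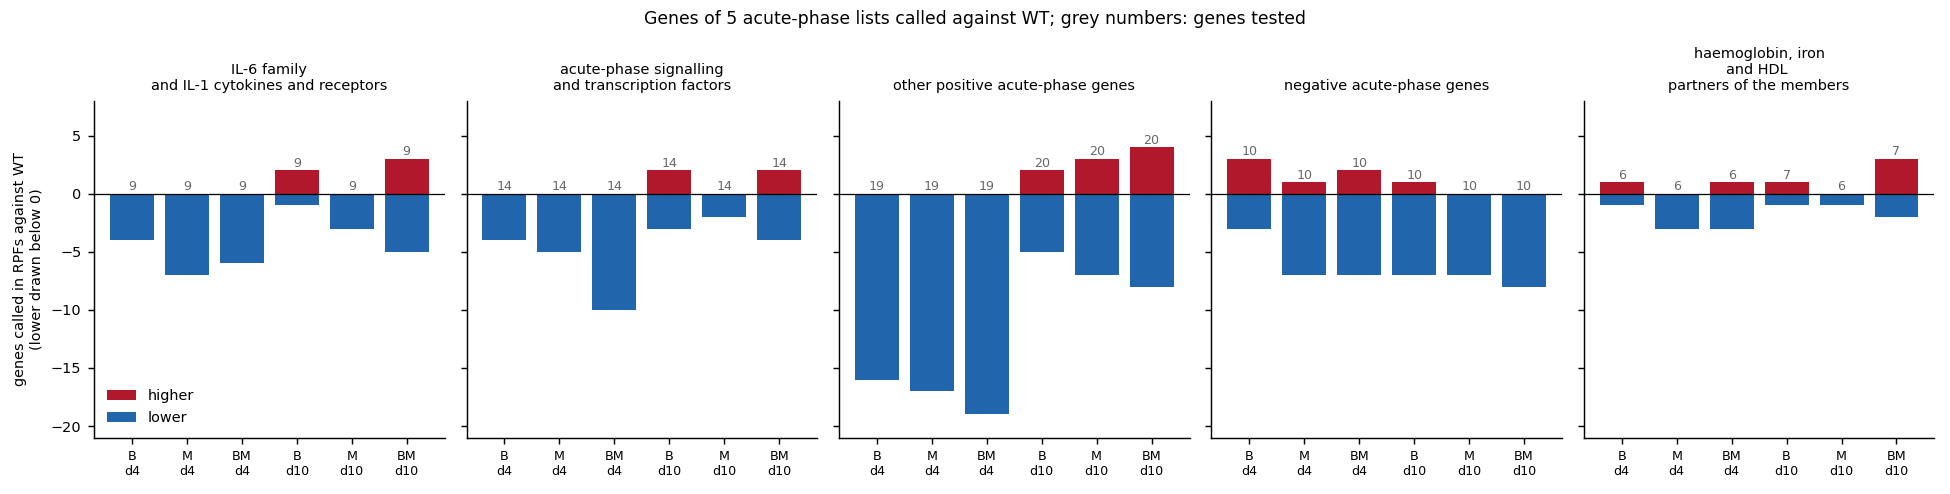
Numbers of genes of 5 acute-phase lists called in RPFs against WT, higher drawn above 0 and lower below 0, with the number tested in grey. At day 4 the other positive acute-phase genes reach 16, 17 and 19 lower and none higher, and at day 10 the bars point both ways.

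Over the 24 mice, the RPF levels most like each member were found among 11999 genes by Pearson's r of log2(CPM + 1). These are descriptions, since all points share libraries and genotypes, and footprints shared between paralogues enter both of their RPF levels. In RNA, r was 0.767 for Saa1 and Saa3 and 0.764 for Orm2 and Lcn2, and Orm2 was there more like Saa1 (0.875) than like Lcn2. Saa1 was most like Saa2 (r = 0.994), Saa3 (0.967) and Pik3ap1 (0.905), and Saa2 and Saa3 were likewise most like the other inducible Saa genes, followed by Nos1ap (0.908) and Prtn3 (0.895). Saa4 was instead most like Hopx (0.865), Hp (0.864) and Fas (0.859), and Orm1 was most like Qsox1 (0.913), Osbpl9 (0.908) and St6galnac6 (0.908). Orm2 and Lcn2 were each other's closest gene (0.915), followed by Mpeg1 (0.89) and Snx10 (0.873) for Orm2 and by Chil3 (0.908) and Mt1 (0.903) for Lcn2. Orm3 followed Lad1 (0.918), Prmt9 (0.883) and Myom3 (0.878), Hp followed Tmem176a (0.917), Lbp (0.897) and Tmem176b (0.885), and Apcs followed Fndc3b (0.909), Cpb2 (0.894) and Vtn (0.893).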

How the data were processed

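RPF and cytoplasmic RNA libraries of 24 individual mouse livers were sequenced single-end, and groups were taken from the labels. For RPFs, the authors trimmed reads (cutadapt 1.18), collapsed molecular identifiers, removed ribosomal and transfer RNA, aligned to the most abundant transcript of each gene (BBmap, GRCm39, GENCODE vM27) and deposited whole-number counts over coding sequences without the first 20 and last 10 codons. For RNA, the authors trimmed and deduplicated likewise, used Bowtie2 2.3.5.1 and RSEM 1.3.3 and deposited expected counts and TPM. Versions are from the submitters' processing notes.

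Expected counts were summed per gene and rounded (at least 99.92% of nonzero values lay within 0.005 of a whole number). Symbols came from GENCODE vM39 for 20614 of 20622 genes. Genes passing filterByExpr (minimum count 10, minimum total 15) were scaled by TMM and tested with edgeR 4.0.16 (R 4.3.3, limma 3.58.1) by the quasi-likelihood F test over the groups compared, with Benjamini-Hochberg adjustment over all genes tested and a threshold of 0.1. TE was the interaction of library type and genotype, with TE of a mouse given at 10 counts or more in both libraries. The scripts were tested on simulated data. Alternatives were DESeq2 1.42.0, RLE size factors, no TMM, no filter, all 24 mice in 1 fit, summed paralogues, a replicate block, and each mouse left out.

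RPF and RNA libraries of a number are from the same mouse per the labels, and their deviations from group means correlated by 0.197 to 0.62 (24 pairs). The main TE test left out this pairing, and the mouse was the block for TE only in the replicate-block alternative. Numbers did not pair mice of different genotypes. The members and lists were chosen with earlier results of these data known. Named genes were the 10 members, 5 check genes (Glul, Axin2, Lgr5, Myc and Alb), the called gene with the largest RPF change in each direction of each list in BM against WT, and the 3 genes most correlated with each member, beside those said to be named later. Cell numbers, protein sequences and the promoters of Hp and Orm1 were not analysed here. Depth limits the low genes most, Orm3 above all.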

Additional observations from a re-analysis of the deposited data

Results flagged for a closer look

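Changes against WT that differed between day 10 and day 4, by the interaction of genotype and day in RPFs (edgeR, adjusted p < 0.1), stand here as log2 values, positive where the change was higher at day 10. All rest on the same 6 WT mice, and the WT group mean was higher at day 4 than at day 10 for all 10 members.

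In B the difference was 9.48 for Saa1 (SE 1.30), 10.14 for Saa2 (SE 1.51), 7.01 for Saa3 (SE 1.05) and 1.92 for Saa4 (SE 0.35). It was 1.15 for Orm1, 7.97 for Orm2 (SE 1.22), 5.35 for Orm3 (SE 1.40), 1.65 for Hp, 9.84 for Lcn2 (SE 1.35) and 1.58 for Apcs. Orm1 lost its call without WT day 4 mouse 1 or 3, B day 4 mouse 2 or 3, WT day 10 mouse 1 or B day 10 mouse 2 (adjusted p 0.118 to 0.144), and was 0.71 without the last. Apcs lost its call without WT day 4 mouse 1 or 3, B day 4 mouse 2 or 3, WT day 10 mouse 1 or 3 or B day 10 mouse 2 or 3 (0.135 to 0.19). Orm3 was 3.52 without B day 10 mouse 2.

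In BM the difference was 7.22 for Saa1 (SE 0.98), 7.72 for Saa2 (SE 1.14), 4.37 for Saa3 (SE 0.77), 0.95 for Orm1 (SE 0.25), 6.97 for Orm2 (SE 0.83), 7.48 for Orm3 (SE 0.71), 0.83 for Hp (SE 0.31) and 9.45 for Lcn2 (SE 1.06). Hp lost its call without WT day 4 mouse 1 or 3, BM day 4 mouse 1 or 3 or WT day 10 mouse 1 or 3 (adjusted p 0.118 to 0.153).

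In M the difference was 5.07 for Saa2, 1.51 for Saa4, 3.87 for Orm3 and 4.95 for Lcn2. Saa2 lost its call without WT day 4 mouse 1 or 3, M day 4 mouse 1 or 3, WT day 10 mouse 1 or 3 or M day 10 mouse 1 (adjusted p 0.145 to 0.242), and Saa4 without WT day 4 mouse 1 or 3, M day 4 mouse 1, WT day 10 mouse 3 or M day 10 mouse 1 (0.104 to 0.125). Orm3 lost it without WT day 4 mouse 1 (0.101), and Lcn2 without WT day 4 mouse 1 or 3, M day 4 mouse 1 or 3, WT day 10 mouse 1, 2 or 3 or M day 10 mouse 1 (0.117 to 0.263).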

How the results depend on the processing

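Of 2243 log2 changes of called members recomputed under the alternatives, 2050 kept direction and call, 181 kept direction and lost the call, and 12 changed direction, each of these with the paralogues summed. In RPF counts Orm2 was at most 59.1% and Orm3 at most 11.6% of Orm1 in any mouse. The Orm sum therefore mostly follows Orm1, and its direction does not test a rise of Orm2 or Orm3. The Orm sum changed by -1.03 in M against WT at day 4 in RPFs, where Orm3 had risen. It changed by -0.27 in RPFs and -0.27 in RNA in M at day 10, and by -0.70 in RPFs, -0.57 in RNA and -0.14 in TE in BM at day 10, where Orm2 or Orm3 had risen. It changed by -1.10 for BM against B and -0.44 for BM against M at day 10, and by -0.10 in M between the days. With Saa1, Saa2 and Saa3 summed, an alternative chosen after seeing the data, BM against B at day 4 was -0.34 (adjusted p = 0.127). Without TMM, Hp in BM at day 10 changed by -0.57 (adjusted p = 0.11), the median of all genes shifted by 0.021 to 0.549, and 53.8% to 95.1% of called genes were higher, against 48.5% to 56.8% with it.

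Of 360 counts of called members, 317 stayed within 1.5 times the value given. With all 24 mice in 1 fit the count was 2 for RNA in M at day 10, 2 for BM against B and 5 for BM against M at day 4, 0 for M between the days and 1 for the M difference between days. For that last difference DESeq2 called 7, no TMM 2, no filter 7 and the replicate block 2. In TE, DESeq2 called 1 in BM at day 4 and 1 in M and 2 in BM at day 10, and the replicate block by mouse called 2, 3 and 3 at day 4 and 2, 2 and 2 at day 10. The block of same-numbered mice, whose deviations correlated by -0.19 to 0.243 over 36 pairs, called 0 for M between the days, and 8 in M at day 4, without Orm2 (adjusted p = 0.138) and Lcn2 (0.115), and 9 for the B difference between days, without Apcs (0.119). With 1 mouse left out, the counts ran from 3 to 6 for RPFs in B at day 10, 0 to 1 for TE in B and in BM at day 4, 0 to 2 for TE in M and 1 to 2 in BM at day 10, 2 to 8 for BM against B at day 10, 0 to 3 for M between the days and 0 to 8 for the M difference. The cause of these moves was not tested.

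Over all genes in RPFs, the fit of all 24 mice called 577 instead of 1379 in B and 2388 instead of 3698 in M at day 4, 137 instead of 484 in WT between the days, 2712 instead of 4355 for BM against M at day 4, and 6745 and 6294 instead of 4235 and 3769 for BM against B and M at day 10. Without TMM, 4472 instead of 2885 were called in B and 3820 instead of 2192 in M at day 10.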
